A study of Drosophila melanogaster with 8 samples.

Results

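Amino acid transporter genes were followed in enterocyte preparations from the posterior midgut of Drosophila melanogaster. The 8 genes were slif, mnd, JhI-21, sbm, path, NAAT1, gb and polyph, picked by FlyBase symbol, and 7 of them had a row among the 9177 genes of the count table. polyph is not analysed here. The study asked, per its title, which genes are targets of Shavenbaby (Svb), a transcription factor of the ovo locus, in mature enterocytes. All groups carried MyoIA-Gal4 with UAS-GFP and tubGal80TS, so that UAS transgenes came on in enterocytes at 29 °C. Ctrl (n = 2) had no further transgene and came from a cross to Canton-S. SvbAct (n = 3) also carried UAS-SvbACT::GFP, a constitutive activator form, and RNAiSvb (n = 3) carried UAS-SvbRNAi. Virgin females were moved to 29 °C at 3 days of age and dissected 6 days later, and each batch held more than 20 animals. Patches of enterocytes kept by a 70 µm strainer were collected. The strain label says that the UAS lines were active in ISCs (intestinal stem cells), whereas the driver and the cell type label name enterocytes.

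Enterocytes take up amino acids that proteases release from food, through carriers of several solute carrier (SLC) families. SLC7 carriers include cationic amino acid transporters, which work alone, and light chains, which pair with a heavy chain, CD98hc in flies, to reach the membrane. SLC6 carriers use the sodium gradient, and SLC36 carriers use the proton gradient and can act at lysosomes, where amino acids feed into TORC1, the kinase complex that matches growth to nutrition. Among the genes here, slif (slimfast) is a cationic SLC7 carrier, and mnd (minidiscs), JhI-21, sbm (sobremesa) and gb (genderblind) are SLC7 light chains. path (pathetic) and polyph (polyphemus) are SLC36 carriers, and NAAT1 is a broad-range SLC6 carrier.

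Library totals ran from 15450011 to 23748649 counts, and the 7 genes together took 9324 to 22136 counts of a library. All 7 were kept by the filter on low counts. Counts of the targeted gene ovo were 9 and 2 in Ctrl and 868, 1189 and 762 in SvbAct. The libraries labelled RNAiSvb held 40, 26 and 61, so no fall of ovo was seen under the hairpin label and no direction here rests on one. Summed over 8 enterocyte markers, levels were 7805 to 11180 CPM in all 8 libraries. CPM is a gene's count at a common library size, set with TMM factors (TMM sets the factors from genes that differ little between libraries). alphaTry was the largest part of that sum, with 2722 to 6266 CPM, and the markers did not move together. nub was called higher in SvbAct than in Ctrl (2.31-fold, edgeR adjusted p 0.0107). Against the libraries labelled RNAiSvb, SvbAct had pdm2 called higher (3.81-fold, edgeR adjusted p 0.00254) and alphaTry lower (0.546-fold, edgeR adjusted p 0.0376). No other of the 8 was called in any comparison. Summed over 12 muscle markers, levels were 6239 to 9357 CPM, of which Msp300 alone had 5241 to 7440 CPM. Without Msp300 the other 11 muscle markers summed to 562 to 2339 CPM. Summed over 7 progenitor markers they were 100.7 to 109.5 CPM in Ctrl, 100.5 to 108.4 CPM in the libraries labelled RNAiSvb and 212 to 309.5 CPM in SvbAct. In bulk RNA, fewer cells of a type and less RNA per cell cannot be told apart.

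In Ctrl slif, NAAT1, path and sbm were abundant, JhI-21 and gb lay in the middle range of the genes tested, and mnd was scarce. Levels of different genes are compared per length, as RPKM, which is CPM divided by exon length in kb. In Ctrl slif was highest, at 97.8 ± 7.74 RPKM (SD, n = 2), above 91.7% of the genes tested. NAAT1 followed at 64.2 ± 7.36, path at 58.5 ± 11.7 and sbm at 45.3 ± 1.89 RPKM. The ranges of NAAT1 and path overlapped in Ctrl, while the other neighbours among these 4 did not. JhI-21 lay at 7.91 ± 0.404 RPKM and gb at 6.87 ± 2.11 RPKM, with overlapping ranges, above 43.8% and 40.1% of the genes tested. mnd at 0.797 ± 0.388 RPKM was above 11.9% of them. All 7 were measured in every library, with mnd lowest at 14 to 60 counts.

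**Figure D1:**
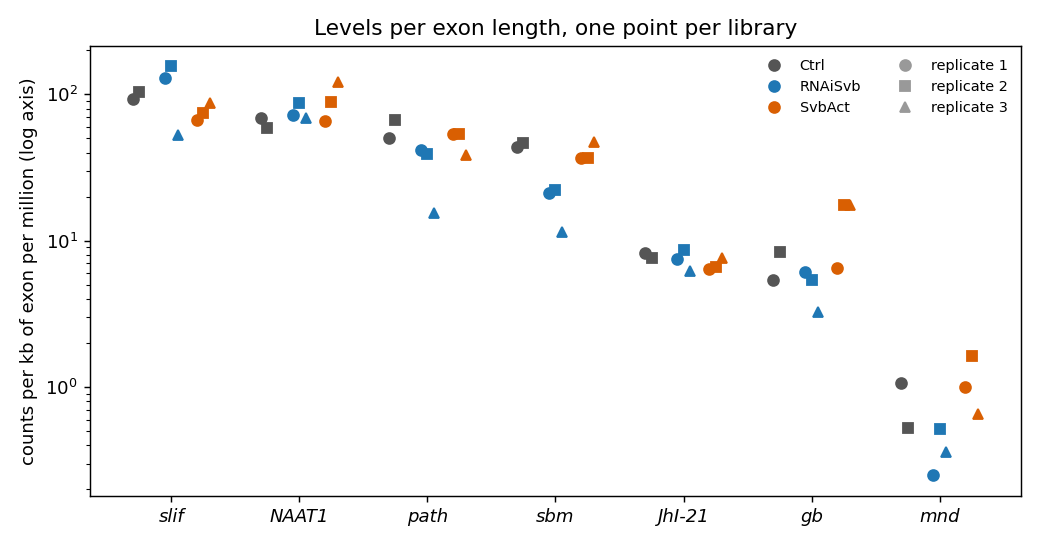
Level of each gene per exon length (RPKM, log axis) in every library, coloured by group, with marker shapes for replicates. In Ctrl slif, NAAT1, path and sbm lay between 43.98 and 103.3, JhI-21 and gb between 5.379 and 8.368, and mnd at 0.522 and 1.071.

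The order held in the libraries labelled RNAiSvb by mean, but not in SvbAct. There NAAT1, at 92.0 ± 27.5 RPKM (SD, n = 3), stood above slif at 76.5 ± 10.1 RPKM, with overlapping ranges. gb, at 13.9 ± 6.38 RPKM, stood above JhI-21 at 6.90 ± 0.641 RPKM, again with overlapping ranges. As a share of the per-length signal of the 7 genes, which does not depend on the scaling between libraries, slif made up 34.1% and 35.3% in Ctrl. Its share was 46.4%, 48.7% and 33.2% in the libraries labelled RNAiSvb and 28.3%, 26.8% and 27.3% in SvbAct.

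sbm was lower in the libraries labelled RNAiSvb than in both other groups. It encodes a light chain that is needed in glia for the timing of fly development and for brain growth. Its position is chromosome X, 14584733 to 14602580, minus strand (FBgn0030574, annotation of BDGP6.54, as for all positions here). sbm had 157 and 167 CPM in Ctrl, 75.2, 79.7 and 41.0 CPM in the libraries labelled RNAiSvb, and 132, 131 and 169 CPM in SvbAct. Every library labelled RNAiSvb was below all 5 others, and SvbAct overlapped Ctrl. Against Ctrl the level in the libraries labelled RNAiSvb fell by 1.31 on the log2 scale, to 0.403 times Ctrl (SE 0.26, adjusted p 0.0359 in edgeR's quasi-likelihood test, lower in 3 of 3 libraries). SvbAct against Ctrl gave a log2 fold change of -0.17 with a 95% interval of -0.74 to 0.40 (edgeR adjusted p 0.784). The direct comparison of SvbAct with the libraries labelled RNAiSvb gave a rise of 1.14, or 2.20-fold (SE 0.24, edgeR adjusted p 0.0201). As a share of the 7 genes per length, sbm made up 15.96% and 16.25% in Ctrl, 7.58%, 6.99% and 7.24% in the libraries labelled RNAiSvb, and 15.5%, 13.1% and 14.8% in SvbAct. The share in replicate 3 lay between those of the other two, although its CPM was lower than theirs. Of the 12 muscle markers, 12 had log2 fold changes above 0 in the same comparison with Ctrl, with a median of 0.67 and 0 called, and none was at 0. Mhc, the muscle myosin heavy chain, had 157.4 and 61.2 CPM in Ctrl and 149.4, 53.6 and 343.8 CPM in the libraries labelled RNAiSvb. Without Msp300 the other 11 markers summed to 998.5 and 876.5 CPM in Ctrl and 1279, 562 and 2339 CPM in the libraries labelled RNAiSvb. The part of muscle RNA in the sbm result was not tested.

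The fall of sbm kept its direction in every refit but not always its call. Its log2 fold change against Ctrl ran from -1.48 to -1.07 over the alternatives. With replicate number as a block it was -1.26 (edgeR adjusted p 0.0728). The edgeR adjusted p was 0.181 without Ctrl replicate 1, 0.262 without Ctrl replicate 2, 0.0696 without RNAiSvb replicate 1 and 0.0519 without SvbAct replicate 1. Without RNAiSvb replicate 3 the log2 fold change was -1.07 (edgeR adjusted p 0.0325). In the comparison with SvbAct the edgeR adjusted p rose to 0.051 without SvbAct replicate 3. In the authors' deposited table sbm was downregulated in RNAiSvb against Ctrl, with a log2 fold change of -1.31, and the other 6 genes were not called in either comparison with Ctrl.

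**Figure D2:**
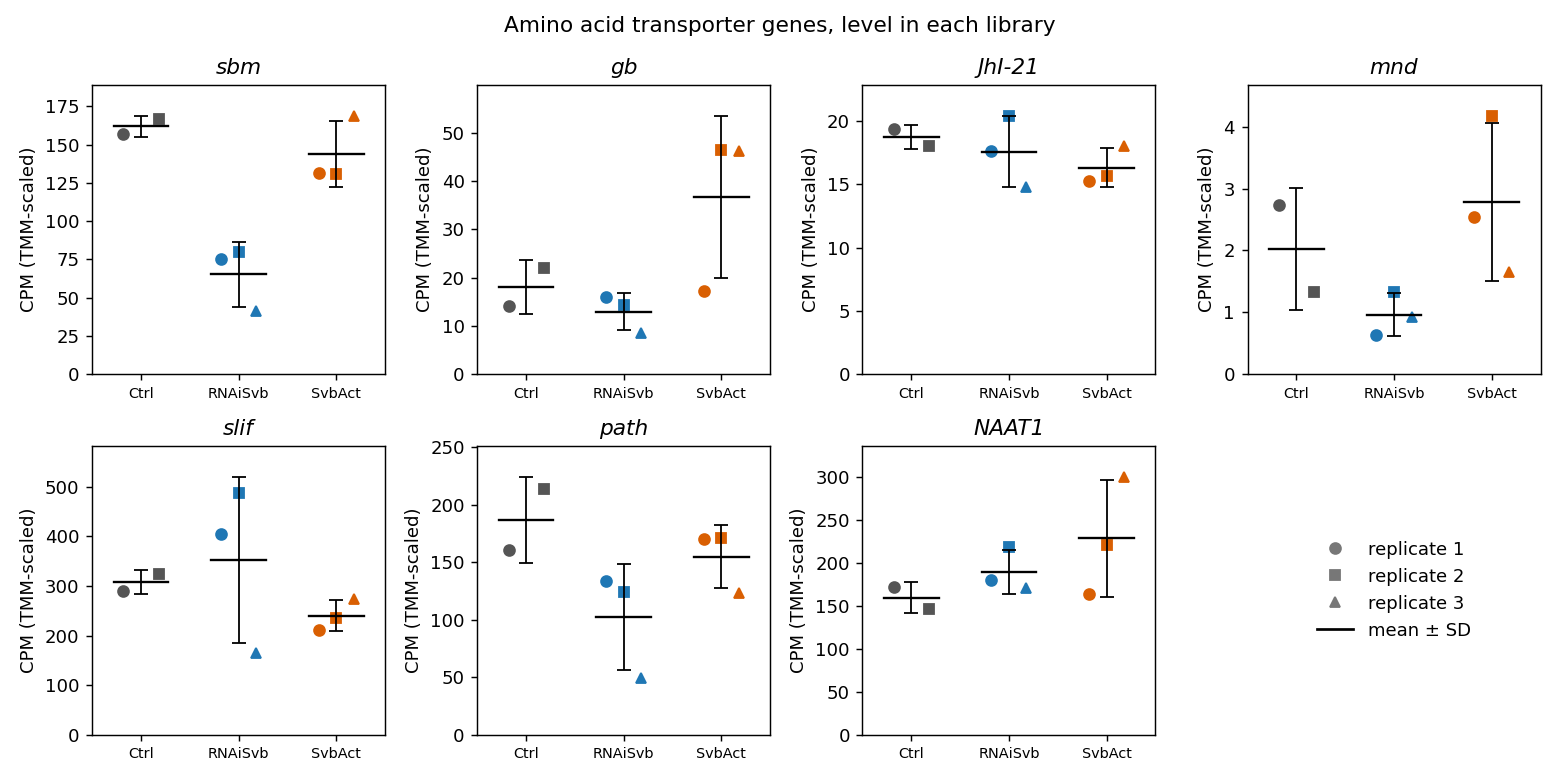
Level of each of the 7 genes in every library (CPM after TMM scaling, linear axes from 0), with mean and SD per group as bars and one marker shape per replicate. The 3 libraries labelled RNAiSvb had 41.0 to 79.7 CPM of sbm, below the other 5, and 2 of the 3 SvbAct libraries had more gb than any other library.

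gb was higher in SvbAct than in the libraries labelled RNAiSvb. In fly glia it encodes a light chain of a cystine and glutamate exchanger that sets glutamate outside cells. Its position is chromosome 3R, 27108467 to 27112270, minus strand (FBgn0039487). gb had 14.2 and 22.1 CPM in Ctrl, 16.0, 14.3 and 8.61 CPM in the libraries labelled RNAiSvb, and 17.3, 46.5 and 46.25 CPM in SvbAct. SvbAct replicate 1 lay within the range of Ctrl, and the other two SvbAct libraries were above every other library. The difference between SvbAct and the libraries labelled RNAiSvb was 1.50 in log2, or 2.83-fold (SE 0.38, edgeR adjusted p 0.0456), and these groups did not overlap. Against Ctrl the log2 fold change in SvbAct was 1.02 with a 95% interval of 0.06 to 1.97, which did not pass (edgeR adjusted p 0.258). In the libraries labelled RNAiSvb it was -0.48, with an interval of -1.40 to 0.44.

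The call of gb was close to the threshold, and it was lost with replicate number as a block. It held in 1 of 8 fits that each left out a library, the one without SvbAct replicate 1, where the rise was 1.84 (edgeR adjusted p 0.00913). The edgeR adjusted p was 0.0626 without Ctrl replicate 1, 0.0631 without Ctrl replicate 2, 0.0606 without RNAiSvb replicate 1, 0.115 without RNAiSvb replicate 2, 0.108 without RNAiSvb replicate 3, 0.135 without SvbAct replicate 2 and 0.103 without SvbAct replicate 3. Of 7 progenitor markers 5 were higher in SvbAct in both comparisons and none was at 0, and their summed level was 233, 309.5 and 212 CPM in the 3 SvbAct libraries. SvbAct replicate 1 had the lowest gb of the 3, and also the lowest Delta, Sox21a and Sox100B among the called markers. N was nearly equal in SvbAct replicates 1 and 3, with 25.2 and 25.26 CPM. The called marker E(spl)mbeta-HLH was lowest in replicate 3. The sum also holds klu, not called, with 105.2, 100.7 and 70.0 CPM in SvbAct replicates 1, 2 and 3. Su(H), also not called, had 6.18, 3.76 and 5.36 CPM in the same libraries, highest in replicate 1. The part of progenitor RNA in the gb result was not tested. Exons of gb overlap asRNA:CR45209 on the other strand by 865 bases, and that gene had 76 counts in all against 3286 for gb. Use of strand in counting was not stated, so reads of the overlap cannot be told apart.

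JhI-21 differed little between libraries. This light chain, first found as a transcript induced by juvenile hormone, takes part with mnd in leucine sensing by insulin-producing cells of the fly brain. JhI-21 (FBgn0028425, chromosome 2L, 12051755 to 12056042, minus strand) had 19.4 and 18.1 CPM in Ctrl, 17.6, 20.4 and 14.8 CPM in the libraries labelled RNAiSvb, and 15.3, 15.7 and 18.1 CPM in SvbAct. The 3 groups overlapped, and the highest library was 1.38 times the lowest. Its log2 fold changes were -0.09 (95% interval -0.57 to 0.39) in the libraries labelled RNAiSvb and -0.20 (-0.68 to 0.28) in SvbAct against Ctrl. The first of these was 0.01 when library totals replaced TMM factors and 0.02 without RNAiSvb replicate 3. Its exons overlap PLCXD on the other strand by 295 bases, which makes its counts uncertain.

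mnd, a leucine-carrying light chain, was the scarcest, and its fold changes had the widest intervals of the 7 genes. mnd (FBgn0002778, chromosome 3L, 14985100 to 14991667, plus strand) had 51 and 22 counts in Ctrl, 14, 31 and 19 counts in the libraries labelled RNAiSvb, and 46, 60 and 29 counts in SvbAct. In CPM the groups were 2.728 and 1.329 in Ctrl, 0.636, 1.325 and 0.919 in the libraries labelled RNAiSvb, and 2.54, 4.18 and 1.65 in SvbAct. SvbAct lay above the libraries labelled RNAiSvb without overlap, by 1.53 on the log2 scale, with a 95% interval of 0.27 to 2.78 that did not pass over all genes (edgeR adjusted p 0.136). Against Ctrl the intervals were -2.45 to 0.30 in the libraries labelled RNAiSvb and -0.93 to 1.83 in SvbAct, and both included 0.

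slif did not pass in any comparison made with all 8 libraries. In the fly fat body this arginine-carrying transporter feeds TOR signalling, and its loss there slows the growth of the whole animal. slif (FBgn0037203, chromosome 3L, 22881045 to 22893821, plus strand) had 290 and 324 CPM in Ctrl, 404, 488 and 165 CPM in the libraries labelled RNAiSvb, and 211, 235 and 274 CPM in SvbAct. All 3 SvbAct libraries lay below both Ctrl libraries, while RNAiSvb replicates 1 and 2 were above every other library and replicate 3 was below every other. The log2 fold change in SvbAct against Ctrl was -0.35 (95% interval -1.13 to 0.43, edgeR adjusted p 0.656). In the libraries labelled RNAiSvb it was 0.20 (-0.59 to 0.99), and it was -0.11 without RNAiSvb replicate 2. Against the libraries labelled RNAiSvb, SvbAct gave -0.55 (edgeR adjusted p 0.319). Without RNAiSvb replicate 3 that difference was -0.89 and passed the threshold (edgeR adjusted p 0.0306).

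path was lower in the libraries labelled RNAiSvb than in Ctrl, without passing the threshold. This SLC36 carrier promotes growth in flies and is needed in neurons that build large dendrites. path (FBgn0036007, chromosome 3L, 9494555 to 9505328, minus strand) had 161 and 213 CPM in Ctrl, 134, 124 and 49.55 CPM in the libraries labelled RNAiSvb, and 170.3, 171 and 123 CPM in SvbAct. The libraries labelled RNAiSvb lay below Ctrl without overlap, and replicate 3 was lowest of all 8 libraries. The log2 fold change was -0.87 (SE 0.35, 95% interval -1.64 to -0.09, edgeR unadjusted p 0.0317, adjusted p 0.311), and -0.54 without RNAiSvb replicate 3. SvbAct gave -0.27 against Ctrl (95% interval -1.05 to 0.51).

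NAAT1, an SLC6 carrier of the gut surface that takes up essential amino acids and their D forms, did not pass in any comparison. NAAT1 (FBgn0029762, chromosome X, 5405238 to 5410849, minus strand) had 172.5 and 147 CPM in Ctrl, 179.6, 218 and 171 CPM in the libraries labelled RNAiSvb, and 164, 221 and 300.4 CPM in SvbAct. SvbAct replicates 2 and 3 were above every other library, and replicate 1 was within Ctrl. The log2 fold change in SvbAct against Ctrl was 0.52 (SE 0.24, 95% interval -0.02 to 1.06, edgeR adjusted p 0.308). In the libraries labelled RNAiSvb it was 0.25 (-0.29 to 0.78).

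RNAiSvb replicate 3 stood apart for these genes, with the lowest value of all 8 libraries in 5 of 7. Its log2 CPM minus the mean of the other two libraries of its group was -1.43 for slif, -1.38 for path, -0.92 for sbm and -0.80 for gb. For JhI-21, NAAT1 and mnd that difference was between -0.36 and -0.008. The median over all genes tested was a difference of -0.005. Muscle markers were high in the same library: 10 of 12 had their highest value of all 8 libraries there, Mhc with 343.8 CPM against 48.0 to 176.9 CPM in the others. Without Msp300, which made up 6088 of the 8427 CPM of the muscle sum there, the other 11 markers summed to 2339 CPM, against 562 to 2255 CPM in the other libraries. Its marker sums were 8872 CPM for enterocytes and 108.4 CPM for progenitors. The part of muscle RNA in its carrier levels was not tested.

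In the libraries labelled RNAiSvb against Ctrl, 1 of 7 was called, lower, beside 1.36% of the 8775 genes tested (1.09% called lower). There 3 of 7 (sbm, path and, by a gap of only 0.004 CPM, mnd) did not overlap Ctrl, all lower, beside 32.9% of all genes in either direction and 17% lower. The median log2 fold change of the 7 was -0.48, and that of all genes was 0.02. In SvbAct against Ctrl none of the 7 was called in edgeR's quasi-likelihood test or with the DESeq2 Wald test, 1 had an unadjusted p under 0.05, and 3.44% of all genes were called, 1.95% higher and 1.49% lower. There slif alone did not overlap Ctrl, lower, beside 38.6% of all genes in either direction and 20% lower, and the medians were -0.17 for the 7 and -0.01 for all genes. In SvbAct against the libraries labelled RNAiSvb 2 of 7 were called, both higher, beside 6.26% of all genes, with 4.05% called higher and 2.21% lower. In that comparison 3 of 7 did not overlap, all higher, beside 29.8% in either direction and 14.9% in each, and the medians were 0.60 and -0.02. Both comparisons with Ctrl share the same 2 Ctrl libraries. Library totals in place of TMM factors moved the median of all genes in RNAiSvb against Ctrl to 0.13, and that of the 7 genes to -0.38.

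**Figure D3:**
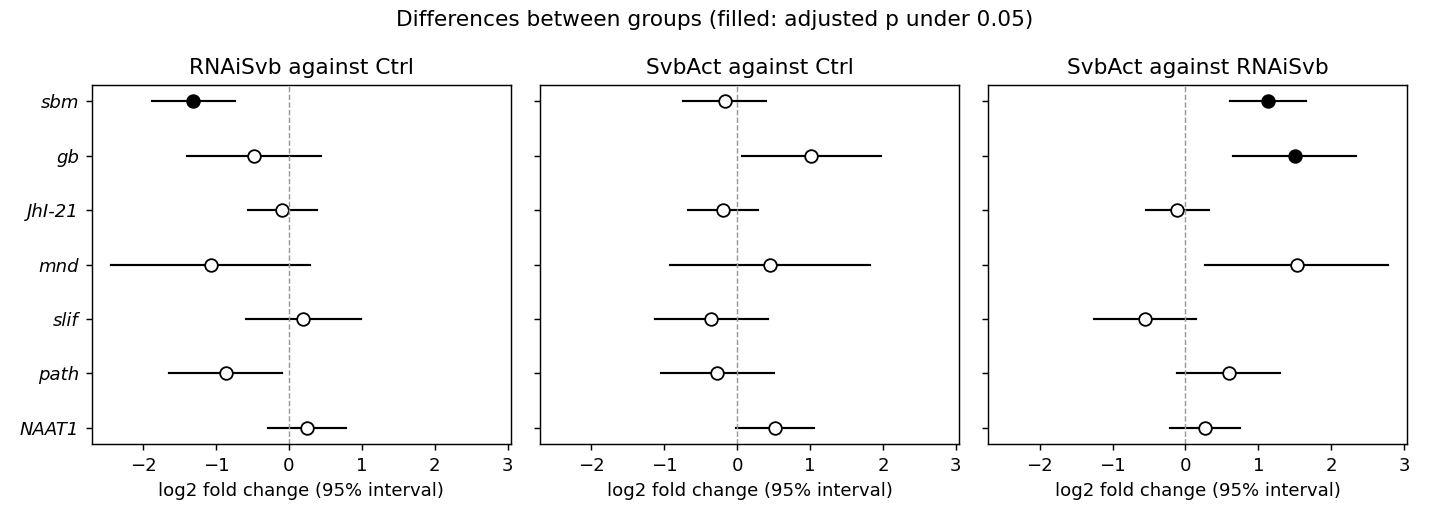
Log2 fold changes of the 7 genes in the 3 comparisons, with 95% intervals as lines and filled points for an edgeR adjusted p under 0.05. Filled points are sbm in RNAiSvb against Ctrl (-1.31) and sbm and gb in SvbAct against RNAiSvb (1.14 and 1.50).

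The heavy chain CD98hc, chosen for its role, did not pass in any comparison. It had 102.8 and 86.0 CPM in Ctrl, 83.3, 106.8 and 78.7 CPM in the libraries labelled RNAiSvb, and 99.9, 112.9 and 107 CPM in SvbAct, with overlap between groups. Its log2 fold changes against Ctrl had 95% intervals of -0.47 to 0.32 in the libraries labelled RNAiSvb and -0.22 to 0.57 in SvbAct. The summed per-length level of the light chains mnd, JhI-21, sbm and gb was 1.35 and 1.74 times that of CD98hc in Ctrl. The ratio was 0.991, 0.818 and 0.643 in the libraries labelled RNAiSvb and 1.21, 1.31 and 1.62 in SvbAct, so the libraries labelled RNAiSvb were the 3 lowest. sbm supplied most of that sum in each library, with 53.7% to 75% of it. gb supplied 28.3% and 24% in SvbAct replicates 2 and 3, and at most 17.4% in the other libraries.

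Among the other amino acid and peptide carriers, acs and blot showed the clearest differences. The list held 34 genes, of which 24 had a row and 23 were tested. In the libraries labelled RNAiSvb against Ctrl 1 of 23 passed the threshold, lower, beside 1.36% of all genes. In SvbAct against Ctrl 1 passed, higher, beside 3.44% of all genes, and in SvbAct against the libraries labelled RNAiSvb 3 passed, 2 of them higher, beside 6.26%. The medians were 0.01, 0.17 and -0.04, beside 0.02, -0.01 and -0.02 for all genes.

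acs (arcus, CG1139) is an SLC36 carrier that enterocytes need to regain their volume after a bacterial toxin has made them shed their contents. It had 10.3 and 8.40 CPM in Ctrl, 2.27, 1.37 and 2.03 CPM in the libraries labelled RNAiSvb, and 9.60, 10.9 and 13.6 CPM in SvbAct. The libraries labelled RNAiSvb were the 3 lowest, and SvbAct overlapped Ctrl, the same arrangement as for sbm. In the libraries labelled RNAiSvb the log2 fold change of acs was -2.31 (SE 0.32, edgeR adjusted p 0.00573), and SvbAct was above them by 2.59 (SE 0.30, edgeR adjusted p 0.00109). Both calls held in every alternative, with edgeR or DESeq2 adjusted p of at most 0.0492 and 0.00487.

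blot (bloated tubules), an SLC6 family gene whose mutation deforms the renal tubules of the fly, was higher in SvbAct. It had 6.74 and 9.42 CPM in Ctrl, 4.68, 2.48 and 6.38 CPM in the libraries labelled RNAiSvb, and 28.4, 27.6 and 29.0 CPM in SvbAct. The 3 SvbAct libraries were close together and above the other 5. They are also the libraries with the higher progenitor marker sums, whose part in the result was not tested. Relative to Ctrl blot rose by 1.81 in log2 (SE 0.36, edgeR adjusted p 0.023), and the difference from the libraries labelled RNAiSvb was 2.65 (SE 0.32, edgeR adjusted p 0.00136). The first call was lost without Ctrl replicate 1 (edgeR adjusted p 0.258), Ctrl replicate 2 (0.114) or SvbAct replicate 1 (0.0575). CG7255, annotated as a cationic amino acid carrier like slif, had 134 and 182 CPM in Ctrl, 176, 178 and 204 CPM in the libraries labelled RNAiSvb, and 124, 96.5 and 112 CPM in SvbAct. SvbAct was lower than the libraries labelled RNAiSvb with a log2 difference of -0.75 (SE 0.17, edgeR adjusted p 0.0273). That call was lost without RNAiSvb replicate 2 (0.0605), RNAiSvb replicate 3 (0.0757), SvbAct replicate 2 (0.0881) or SvbAct replicate 3 (0.064). It was also lost with replicate number as a block.

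**Figure D4:**
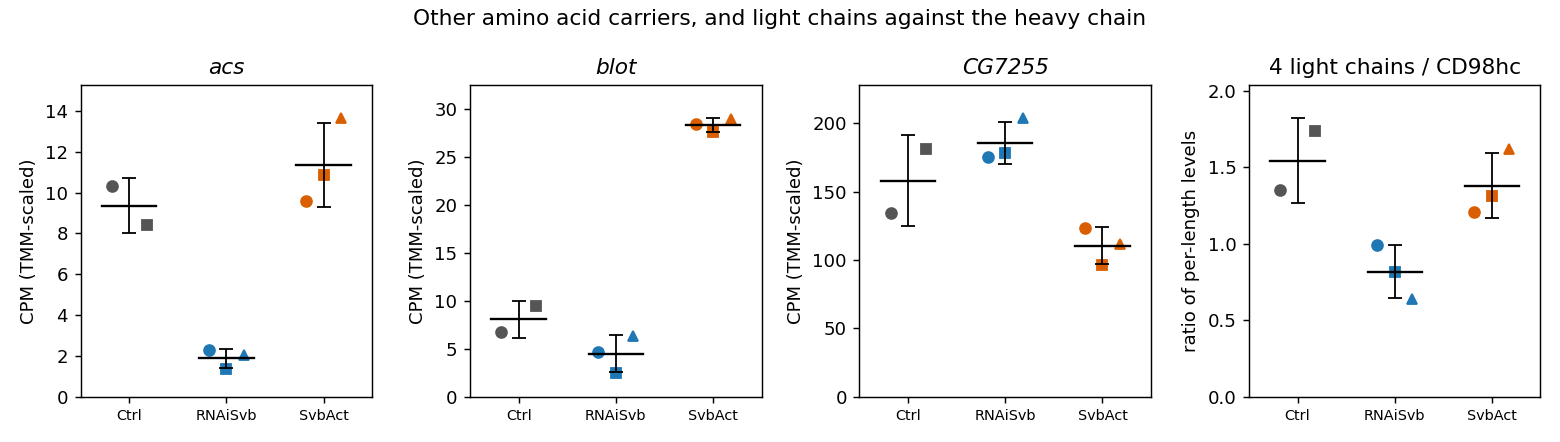
Levels of acs, blot and CG7255 in every library (CPM, linear axes from 0, mean and SD as bars; circles, squares and triangles are replicates 1, 2 and 3), and the ratio of the summed per-length level of 4 light chains to that of CD98hc. The libraries labelled RNAiSvb had 1.37 to 2.27 CPM of acs and a ratio of 0.643 to 0.991, and SvbAct had 27.6 to 29.0 CPM of blot.

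Genes that sense amino acids or handle them inside the cell form short lists, and their counts stand beside the 1.36%, 3.44% and 6.26% of all genes called in the 3 comparisons. Of 19 genes of TORC1 and Gcn2 sensing tested, 0 passed in either comparison with Ctrl in edgeR's quasi-likelihood test, with 0 and 2 at an unadjusted p under 0.05. In SvbAct against the libraries labelled RNAiSvb 1 passed, RagA-B, a small GTPase that brings TORC1 to the lysosome. It had 24.9, 24.3 and 25.7 CPM in the libraries labelled RNAiSvb and 35.4, 55.1 and 41.9 CPM in SvbAct, with no overlap. The log2 difference was 0.82 (SE 0.19, edgeR adjusted p 0.0339). It was lost in 7 of the 8 fits that left out a library, all but the one without SvbAct replicate 1, with adjusted p up to 0.102. Of those 7, the adjusted p was 0.0508 and 0.0519 without Ctrl replicates 1 and 2, 0.067, 0.1 and 0.0737 without RNAiSvb replicates 1, 2 and 3, and 0.102 and 0.0633 without SvbAct replicates 2 and 3. Its exons overlap CAHbeta on the other strand by 62 bases, so its counts are uncertain.

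Of 12 enzymes of amino acid synthesis tested, 0 passed in the 3 comparisons in edgeR's test, with 0, 2 and 4 at an unadjusted p under 0.05. Of 16 breakdown enzymes listed, Haao, Bckdha, Bckdhb, Ivd and Tdo matched no gene name, so their rows were not looked up. Only 5 of the 16 were tested. Of these Mccc1, a subunit of the leucine breakdown enzyme methylcrotonyl-CoA carboxylase, was lower in SvbAct than in the libraries labelled RNAiSvb, with a log2 difference of -0.91 (SE 0.20, edgeR adjusted p 0.0254). It had 44.6, 64.3 and 51.7 CPM in those and 25.8, 24.1 and 35.4 CPM in SvbAct. The call was lost without RNAiSvb replicate 2 (0.0859), RNAiSvb replicate 3 (0.0536), SvbAct replicate 1 (0.0779) or SvbAct replicate 2 (0.0824). Exons of Mccc1 overlap faf on the other strand by 90 bases. As faf had 108136 counts in all against 6389 for Mccc1, the counts of Mccc1 are uncertain.

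The genes whose pattern over the 8 libraries was most like that of sbm, among 6953 genes with an average log2 CPM of at least 2, were prtp, Prx2 and CG42813. prtp encodes an endoplasmic reticulum protein and Prx2 a peroxiredoxin. Mean levels of prtp were 256 CPM in Ctrl (SD 12.6, n = 2), 165 CPM under the RNAiSvb label (SD 34.1, n = 3) and 239 CPM in SvbAct (SD 6.67, n = 3). Its likeness to sbm, Pearson's r of log2 CPM, was 0.987. Likeness was 0.972 for Prx2 and 0.966 for CG42813. For gb the nearest were CG5902, Mob4 and Prestin, with a likeness of 0.955 to 0.967, and for mnd htt, MED7 and Ack, with 0.917 to 0.926. These values describe 8 libraries in 3 groups.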

How the data were processed

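The authors deposited whole-number counts per FlyBase gene for 8 libraries, sequenced as single reads of 100 nt, per the labels' protocols. Per the submitters' processing notes the build was dm6 and the tools were FastQC 0.11.5, STAR 2.5.2b, HTSeq 0.6.0 and edgeR. Settings, strand use and the gene filter are not given in the sources used here. For the tests here edgeR 4.0.16 ran under R 4.3.3 on the deposited counts. Of 9177 genes filterByExpr kept 8775. TMM factors were used, all 8 libraries were fitted with a mean per group (5 residual degrees of freedom), and the quasi-likelihood test was run on 3 contrasts, with Benjamini-Hochberg adjustment over all genes and a threshold of 0.05. The script was tested on simulated data. SEs were taken from the F statistics (absolute log2 fold change over the root of F), and 95% intervals from the SEs. Replicates of a genotype were made on different days, per the series' design text, and the day of each library is not given in the sources used here. Exon lengths and coordinates come from Ensembl 115 (BDGP6.54).

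The 8 genes always named and the gene lists were chosen with earlier results of these data known. Each list gave at most 4 further names per contrast, those called with the smallest adjusted p. CD98hc was added for its role after its values were seen. The 3 genes most like each of 3 members (of the 7, those with the smallest adjusted p in any contrast) were named by Pearson's r of log2 CPM (prior count 2). Listed genes without a row, or whose listed symbol matched no gene name, are not analysed here. Alternatives were DESeq2 size factors, library totals, no filter, the DESeq2 1.42.0 Wald test, only the groups compared, a replicate block and each library left out.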

Additional observations from a re-analysis of the deposited data

How the results depend on the processing

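Over 14 alternatives and 3 contrasts, 273 of the members' fold changes kept direction and side of the threshold, 15 lost a call, 1 gained one (slif) and 5 uncalled ones near 0 changed sign. The same alternatives for the other named carriers and pathway genes were added after seeing the data. Among the members called, RNAiSvb against Ctrl went from 1 to 0 with the replicate block and was 0 to 1 with a library left out. SvbAct against RNAiSvb went from 2 to 1 with the replicate block and with only the groups compared, and was 0 to 2 with a library left out. SvbAct against Ctrl stayed at 0. Over all genes the DESeq2 Wald test called 351, 641 and 1054 in RNAiSvb against Ctrl, SvbAct against Ctrl and SvbAct against RNAiSvb, in place of 119, 302 and 549. With a library left out these counts ran from 23 to 141, 48 to 368 and 262 to 497. Fits with 1 Ctrl library assume that it varies like the others. Whether replicate numbers pair samples across groups is not stated. Deviations from group means correlated at -0.065 to 0.144 for same-numbered libraries and at -0.199 to 0.153 for the others. These values cannot decide it, because deviations within such small groups are tied to each other. With the replicate block 124, 269 and 443 genes were called. Under that block the edgeR adjusted p was 0.0728 for sbm in RNAiSvb against Ctrl, and 0.0695 for gb and 0.0514 for CG7255 in SvbAct against RNAiSvb, and path in SvbAct against Ctrl had a log2 fold change of 0.03. Depth limited mnd most, at 14 to 60 counts per library.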

Other observations

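Eaat1 and CG8785 are described here because of their values. Eaat1, a glutamate carrier known from fly glia, was outside the comparisons because it did not pass the filter on low counts. It had 298 counts in SvbAct replicate 1, 0 and 4 in SvbAct replicates 2 and 3, 4, 0 and 0 in the libraries labelled RNAiSvb and 0 in both Ctrl libraries. One library thus held nearly all of its counts. CG8785, an SLC36 family gene with the highest mean per-length level of all listed carriers in Ctrl (91.2 and 114.5 RPKM, overlapping slif at 92.3 and 103.3 RPKM), had 200 and 251 CPM in Ctrl, 405, 283 and 199 CPM in the libraries labelled RNAiSvb and 191, 566 and 254 CPM in SvbAct. Its highest and lowest libraries both belonged to SvbAct, and it did not pass the threshold in any comparison.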
